A study of Mus musculus with 8 samples.

Results

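Wnt proteins are secreted, lipid-modified ligands that bind Frizzled receptors, and most signal either by stabilising beta-catenin or through beta-catenin-independent branches that steer cell polarity and movement. In the heart they act on the growth and specification of cardiac progenitors. The retinoid X receptors (RXR) belong to the nuclear receptors and pair with other nuclear receptors on DNA, often at sites far from promoters. Described here are the RXR peaks around 10 Wnt ligand genes in newborn mouse hearts. A peak was taken when its summit, the position of highest signal, lay inside the gene or within 50 kb of either end in the RefSeq gene table (mm10). By this rule 27 of the 23961 peaks in the series were found. WT replicate 3 held 21 of them, WT replicate 4 held 4 and edKO replicate 4 held 2, and edKO replicate 3 had none. The 10 genes are Wnt7b, Wnt10a, Wnt6, Wnt1, Wnt10b, Wnt2, Wnt5a, Wnt5b, Wnt11 and Wnt4, out of 19 Wnt genes in the table. They were chosen by the fold enrichments and positions of peaks in these same lists, so their peak counts and strengths are a description and carry no p-value.

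The study mapped RXR by chromatin immunoprecipitation and sequencing in whole hearts at postnatal day 0. Wild-type (WT) hearts were set against edKO hearts, in which Rxra and Rxrb (RXRab-/-) were removed specifically in cardiomyocytes; the other cells of the heart were not targeted. There were 2 WT and 2 edKO hearts, with the replicate numbers 3 and 4 in either genotype. Hearts were fixed with DSG and then FA, each heart is 1 biological replicate per the labels, and from every heart an immunoprecipitate and its input were sequenced. The labels do not name the promoter that drives the deletion. Because the tissue was the total heart, fewer cells carrying a site and less RXR per cell cannot be told apart.

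The peak lists held 19129, 4697, 8 and 127 peaks in WT replicates 3 and 4 and edKO replicates 3 and 4. The lowest local backgrounds recovered from the peak statistics were 2.48, 2.40, 3.13 and 2.96 fragments per position in the 4 immunoprecipitates. They came from 300 peaks in each WT list but from only 8 and 127 in edKO replicates 3 and 4. Whether sequencing depth differed between the libraries was not tested. Peak lists carry no expression values, so neither the loss of Rxra and Rxrb nor Wnt expression could be read from them. Of the marker genes examined, a region with a peak in both WT hearts lay within 50 kb of 7 of 8 cardiomyocyte genes, 4 of 5 endothelial genes, 1 of 5 fibroblast and epicardial genes, 2 of 5 blood and macrophage genes and 0 of 3 smooth muscle genes, against 32.4% of all protein-coding genes. A peak of WT replicate 3 lay near 8 of 8, 5 of 5, 3 of 5, 2 of 5 and 3 of 3 of these genes in the same order, against 64.5% of all. These lists are short, and their counts were not tested.

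RXR signal around the Wnt ligand genes was concentrated outside the genes, near Wnt7b and near the neighbours Wnt10a and Wnt6. A region beyond Wnt7b and a region beyond Wnt10a were among the strongest of the 4342 shared regions, those in which the peaks of the 2 WT hearts overlapped, and both held a weaker peak in edKO replicate 4. Wnt5b had 9 peaks in WT replicate 3, with fold enrichments up to 9.43, while Wnt5a, Wnt11, Wnt4 and Wnt1 had 1 to 3 peaks each in that heart alone, up to 7.75. Wnt2, a ligand of early heart precursors, and Wnt10b, which is known for restraining fat cell formation, had none in any heart.

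**Figure D1:**
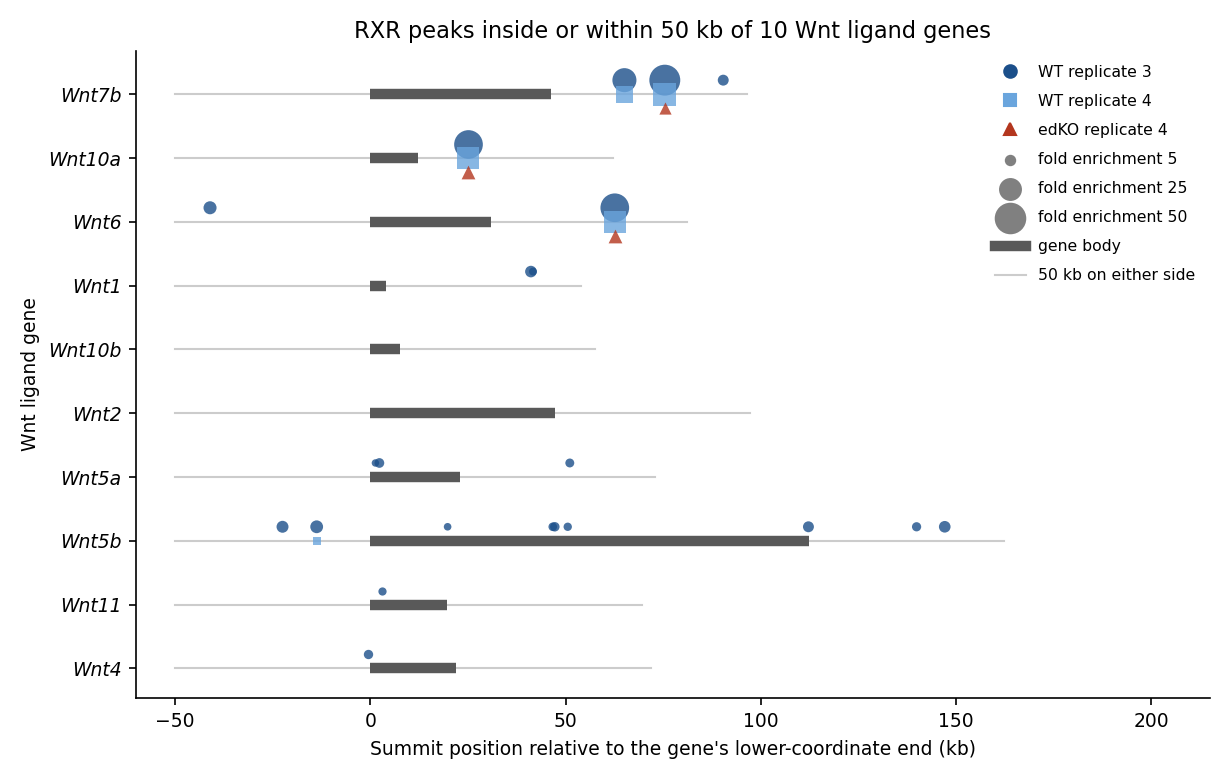
Summits of RXR peaks along each Wnt ligand gene, in kb from the gene's lower-coordinate end; dark bars are gene bodies, grey lines reach 50 kb on either side, marker shape and colour give the heart and marker area the authors' fold enrichment. The large markers lie outside Wnt7b, Wnt10a and Wnt6, the latter 2 genes sharing 1 region, and edKO replicate 3 has no peak in any of the windows.

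Few bases of these peaks fall within the RefSeq promoter windows at hand (GRCm38.p6, 250 bases before to 50 after each start). The strong regions near Wnt7b and Wnt10a lie far from such windows, and their sequence was not analysed here. Of the 10 ligand genes, 7 had windows, 10 in all. The table holds no entry for Wnt7b, Wnt10a and Wnt5a. In WT replicate 3, peaks near Wnt6, Wnt1 and Wnt5b reached the upstream part of a window. The stretches below come from the upstream parts of those windows, outside protein-coding genes where possible, and none holds a summit. Capitals mark a match to the receptor half-sites AGGTCA or GGGTCA on either strand, and each stretch runs 5′ to 3′ on the strand of the named gene.
Cyp27a1 promoter, plus strand, under the peak 41.1 kb from Wnt6, chr1:74713285-74713314: agttgactgctgtgctccatctcacgactg
Prkag1 promoter, minus strand, under the weaker peak 37.7 kb from Wnt1, chr15:98831509-98831668: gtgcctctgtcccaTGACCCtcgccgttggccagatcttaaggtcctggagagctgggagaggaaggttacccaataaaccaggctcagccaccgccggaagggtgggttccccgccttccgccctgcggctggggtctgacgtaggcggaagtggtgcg
Wnt5b promoter, minus strand, its outer end touched by 2 bases of a peak, chr6:119544568-119544597: gtggaaatagctcccgggtcgcttcgcagc
Of these stretches the one at Prkag1, which encodes a regulatory subunit of AMP-activated kinase, held TGACCC, the reverse complement of GGGTCA. Over the 250 upstream bases, AGGTCA in either orientation occurred in 14.0% of all 32851 windows and in 0 of the 10 windows of the ligand genes. GGGTCA occurred in 11.6% of all windows and in 3 of those 10, which belonged to Wnt10b and Wnt5b. A match describes letters only, and Wnt10b had no peak within 50 kb.

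The strongest region near a Wnt gene lay 29 kb outside Wnt7b, a ligand of the beta-catenin branch known for its part in lung and blood vessel development. It covered chr15:85610563-85611236 (mm10), outside every protein-coding gene. The fold enrichment, which is the authors' ratio of the summit signal to the local background of the same heart, was 55.1 and 30.3 in WT replicates 3 and 4 and 8.59 in edKO replicate 4, and edKO replicate 3 had no peak. Both WT hearts thus lay above the edKO heart that had a peak, by 6.42 and 3.53 times. The fragments stacked at the summit, recovered from the deposited statistics, numbered 191 (95% Poisson interval 165 to 220), 103 (84.1 to 125) and 33 (22.7 to 46.3) in the same order. None of these 3 intervals overlapped, and they cover counting error only. The summits of the 3 hearts fell within 25 bp of each other, with edKO replicate 4 at 3 bp from WT replicate 4. Wnt7b was the nearest protein-coding gene. The next were 7530416G11Rik at 108 kb and, on the other side, Ppara, which encodes a fatty acid-sensing receptor that pairs with RXR, at 124 kb.

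A second region lay 18.7 kb outside Wnt7b on the same side, at chr15:85600167-85600694, with its summit 10.3 kb from that of the stronger region. Its fold enrichment was 33.3 in WT replicate 3 and 16.9 in WT replicate 4, with no peak in either edKO heart. The summit held 115 fragments in WT replicate 3 (95% Poisson interval 94.9 to 138) and 57 in WT replicate 4 (43.2 to 73.9). Summits of the WT hearts were 9 bp apart, against a median of 36 bp over all shared regions. Another peak, 44.0 kb from Wnt7b and 15 kb beyond the strongest, was present in WT replicate 3 only, at 6.89. No peak of any heart lay inside the Wnt7b gene.

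Wnt10a and Wnt6 are neighbours on chromosome 1, and 1 region counted for both. Wnt10a is a ligand of tooth and hair development, and Wnt6 is known mainly from embryonic epithelia. The region covered chr1:74816466-74817295, 12.8 kb outside Wnt10a and 31.6 kb outside Wnt6, and lay outside every protein-coding gene. Its fold enrichment was 47.4 and 29.4 in WT replicates 3 and 4 and 10.9 in edKO replicate 4, with no peak in edKO replicate 3. The WT values were thus 4.36 and 2.71 times the edKO replicate 4 value. Fragments at the summit numbered 164 (95% Poisson interval 140 to 191), 151 (128 to 177) and 42 (30.3 to 56.8) in the same order. The WT intervals overlapped, although the WT fold enrichments differed by 1.61 times. The local background was 4 fragments in WT replicate 4 and 2.48 in WT replicate 3. Summits of the WT hearts were 10 bp apart, and that of edKO replicate 4 lay 24 and 34 bp from them. Besides Wnt10a and Wnt6, the nearest protein-coding gene was Cdk5r2 at 38.1 kb.

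**Figure D2:**
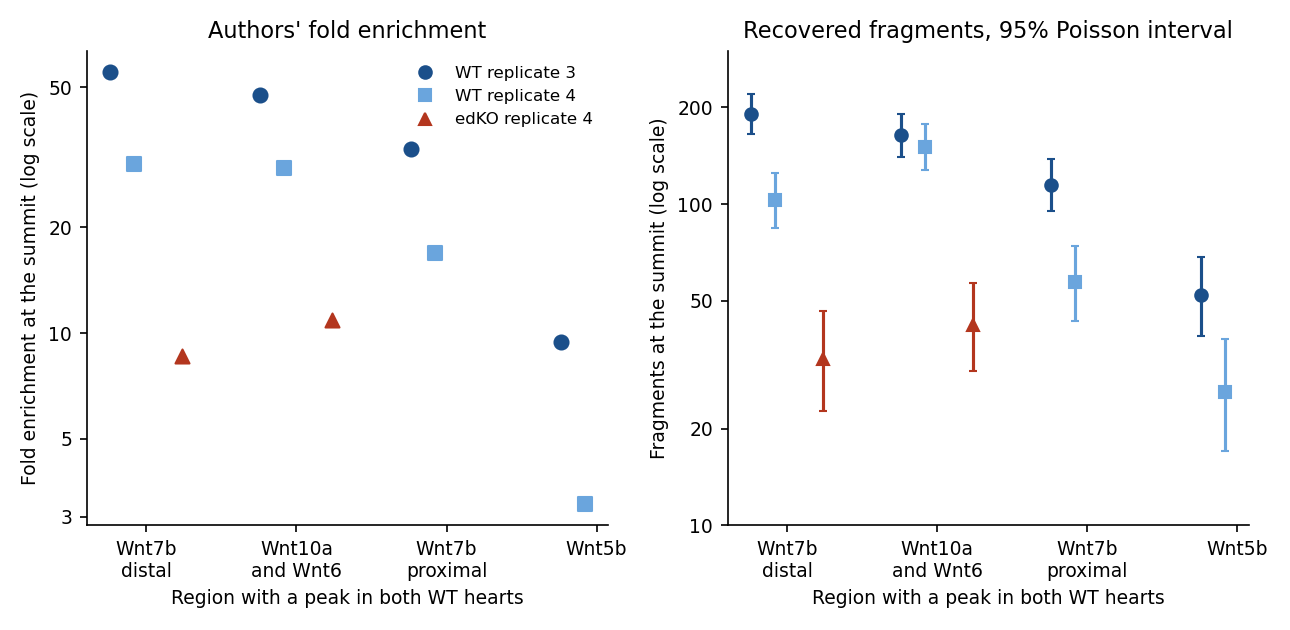
Fold enrichment (left) and fragments at the summit with 95% Poisson intervals (right), both on log scales, for the 4 shared regions; each point is 1 heart. WT replicate 3 is highest in every region, edKO replicate 4 has points in the distal Wnt7b and the Wnt10a and Wnt6 regions at 33 and 42 fragments, and edKO replicate 3 has none.

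Wnt6 also had a peak on its other side, 41.1 kb away, in WT replicate 3 alone, with a fold enrichment of 9.81 and 36 fragments. Its summit lay inside Cyp27a1, which encodes the sterol 27-hydroxylase of bile acid synthesis, 272 bp from the start site of that gene's promoter window. Wnt1, a ligand best known for the midbrain and neural crest, had 2 peaks at 37.1 and 37.7 kb, again only in WT replicate 3, with fold enrichments of 7.75 and 3.62. Both summits lay inside Prkag1, the weaker of them 4 bp from its start site. Around Wnt6 and Wnt1, the peaks seen in WT replicate 3 alone were thus nearest to genes other than the ligand.

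Wnt5b, Wnt5a and Wnt11, ligands best known for beta-catenin-independent signalling, differed from Wnt7b in having summits inside the gene. All of those inside summits were found in WT replicate 3 alone, with 11 to 23 fragments and fold enrichments of 3.20 to 6.89. Wnt5b had 9 peaks in WT replicate 3, the most of the 10 ligand genes, with fold enrichments from 3.34 to 9.43. Its window of 212 kb was also the longest, and 3.37% of all protein-coding genes had at least as many peaks of WT replicate 3 within 50 kb. Of these 9 peaks, 5 had the summit inside Wnt5b, at 3.34, 4.26, 5.17, 4.02 and 6.89, of which those at 5.17 and 4.02 also lay inside Fbxl14, an F-box gene within the same interval. The peak at 6.89 was 388 bp upstream of a Wnt5b start site. The remaining 4 lay in or next to the adiponectin receptor gene Adipor2 (8.22 and 9.43) or inside Erc1 (4.90 and 7.80).

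The peak at 9.43 was the one of these that had a partner in WT replicate 4. This region, chr6:119418558-119419166, lay 13.8 kb outside Wnt5b but 1.07 kb outside Adipor2. Its fold enrichment was 3.27 in WT replicate 4, with 52 fragments in WT replicate 3 (95% Poisson interval 38.8 to 68.2) and 26 in WT replicate 4 (17.0 to 38.1). No edKO peak was listed there.

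Wnt5a had 3 peaks in WT replicate 3 and none in the other hearts. The fold enrichments were 3.20 and 5.45 for the summits inside the gene and 4.59 for a summit 28.2 kb outside it, each from 15 to 18 fragments. Wnt11, which takes part in heart development, had 1 peak inside the gene in WT replicate 3, at 3.90 with 13 fragments. It lay 746 bp upstream of the nearer of 2 annotated starts. Wnt4, a ligand of kidney and reproductive tract development, had 1 peak in WT replicate 3, at 5.04 with 18 fragments, 525 bp upstream of its start. These values lay near or below the median fold enrichment of all peaks of that heart, 5.46.

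For Wnt10b and Wnt2 the nearest peak of WT replicate 3 was 52.8 kb and 179 kb away. The Wnt10b distance is that of the stronger Prkag1 peak counted for Wnt1, so the 50 kb limit alone separates these neighbours. Just inside the limit lay the peaks 41.1 kb from Wnt6 (9.81) and 44.0 kb from Wnt7b (6.89). Just outside it lay peaks 51.0 kb from Wnt11 (5.74) and 52.8 kb from Wnt7b (8.29 in WT replicate 3, with a partner of 7.13 in WT replicate 4). At 57.5 kb from Wnt4 a region inside Cdc42 had fold enrichments of 18.3 and 9.48 in WT replicates 3 and 4. The region 52.8 kb from Wnt7b was the fourth peak of WT replicate 3 on that side of the gene.

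Peaks near the ligand genes were more numerous in the WT hearts, whose lists were also the longer ones. Their mean number was 12.5 ± 12 (SD, n = 2) in WT and 1 ± 1.41 (SD, n = 2) in edKO hearts, and the ratio of the means was 12.5. Each WT heart had more than either edKO heart, but the gap between the WT hearts (21 and 4 peaks) was wider than that between WT replicate 4 and edKO replicate 4 (4 and 2). Leaving out WT replicate 3 gave a ratio of 4, leaving out WT replicate 4 one of 21 and leaving out edKO replicate 3 one of 6.25; without edKO replicate 4 the edKO count was 0 and no ratio could be formed. These peaks made up 0.110% and 0.0852% of the lists of WT replicates 3 and 4 and 1.57% of that of edKO replicate 4. The lists also ended at different strengths. The lowest Poisson −log10 p was 3.85 for WT replicate 3, 4.70 for WT replicate 4, 6.03 for edKO replicate 4 and 9.53 for edKO replicate 3. The counts and their ratio of 12.5 thus do not rest on a common threshold. At a −log10 p of at least 10 for all peaks the ratio was 7.5.

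By gene, 8 of the 10 ligands had a peak in WT replicate 3, where 64.5% of all 21887 protein-coding genes did. In WT replicate 4 it was 4 of 10, against 33.5%. A region with a peak in both WT hearts lay within 50 kb of 4 of 10 (Wnt7b, Wnt10a, Wnt6 and Wnt5b), against 32.4% of all genes. The edKO replicate 4 peaks counted for 3 of 10 (Wnt7b, Wnt10a and Wnt6), against 1.52%, and those of edKO replicate 3 for 0 of 10, against 0.119%. Apart from edKO replicate 4, where 2 peaks serve 3 genes, these shares were near those of all genes, and the choice of the genes used the same peaks.

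Of the 21 peaks of WT replicate 3, 4 recurred in WT replicate 4, or 19.0%, against 22.9% of all peaks of that heart. The 4 had fold enrichments from 9.43 to 55.1 and from 52 to 191 fragments, and all had the summit outside every protein-coding gene and over 10 kb from the ligand. The other 17 ranged from 3.20 to 9.81 and from 11 to 36 fragments, and 14 of them had the summit inside a gene, 8 in the ligand itself. A difference in strength was also present over all peaks of that heart, with median fold enrichments of 9.47 for those that recurred and 5.17 for those that did not. Of all shared regions 42.9% had the summit outside every protein-coding gene.

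Among all 4342 shared regions, ranked by the mean fold enrichment of the WT hearts, the distal Wnt7b region was 10th, the Wnt10a and Wnt6 region 19th, the proximal Wnt7b region 101st and the Wnt5b region 3056th. Their means were 42.7 ± 17.5, 38.4 ± 12.7, 25.1 ± 11.6 and 6.35 ± 4.36 (SD, n = 2). The median of the 4 was 31.7, and that of all shared regions 7.81. Without WT replicate 4, when all 21 peaks of WT replicate 3 enter, the median was 5.45. The WT replicate 3 value was higher in all 4, by 1.61 to 2.89 times, and the median ratio over all shared regions was 1.49. Regions just above the distal Wnt7b region in rank were those nearest to the cholesterol exporter gene Abca1 (46.7) and in the lipase inhibitor gene Angptl4 (44.3). The Abca1 region lay 58.3 kb from that gene, beyond the 50 kb limit used here. Just below it were those near the desaturase gene Scd1 (41.9) and in the carnitine palmitoyltransferase gene Cpt1a (41.5). In both WT hearts the Abca1 region (60.9 and 32.6 in WT replicates 3 and 4) lay above the distal Wnt7b region. The Wnt10a and Wnt6 region lay below it in both. The regions of Angptl4 (64.9 and 23.6), Scd1 (47.7 and 36.2) and Cpt1a (43.7 and 39.4) lay above it in 1 WT heart and below it in the other. The order was not tested.

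The strong regions near Wnt7b and Wnt10a lay farther from protein-coding genes than most shared regions did. The ligand genes were chosen by the strengths and positions of these same peaks, so distance and rank are a description only. Of all shared regions 18.9%, or 819, had the summit more than 10 kb from every protein-coding gene. Among these the distal Wnt7b region was 2nd, the Wnt10a and Wnt6 region 4th and the proximal Wnt7b region 14th. The median mean fold enrichment of these 819 regions was 8.08.

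A peak in edKO replicate 4 was present in 2 of the 4 shared regions near ligand genes, the 2 strongest. Over all shared regions the share was 2.88%, and with a peak in edKO replicate 3 it was 0.184%. The share rose with strength: all 19 regions from the 1st rank to that of the Wnt10a and Wnt6 region had an edKO replicate 4 peak, and the first region without one was 28th. Of the first 101 regions, down to the proximal Wnt7b region, 66 had one, or 65.3%, and so did 37 of the 101 regions within 50 ranks of it. The mean WT fold enrichment was 4.97 times the edKO replicate 4 value at the distal Wnt7b region and 3.53 times at the Wnt10a and Wnt6 region. Over all 125 regions with such a peak this ratio ranged from 2.02 to 7.66 with a median of 3.99. Within the list of edKO replicate 4, the Wnt10a and Wnt6 peak was 11th and the Wnt7b peak 25th of 127 by fold enrichment. The weakest listed summit held 17 fragments in edKO replicate 4 and 24 in the list of edKO replicate 3, so weaker signal would not appear in the lists.

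**Figure D3:**
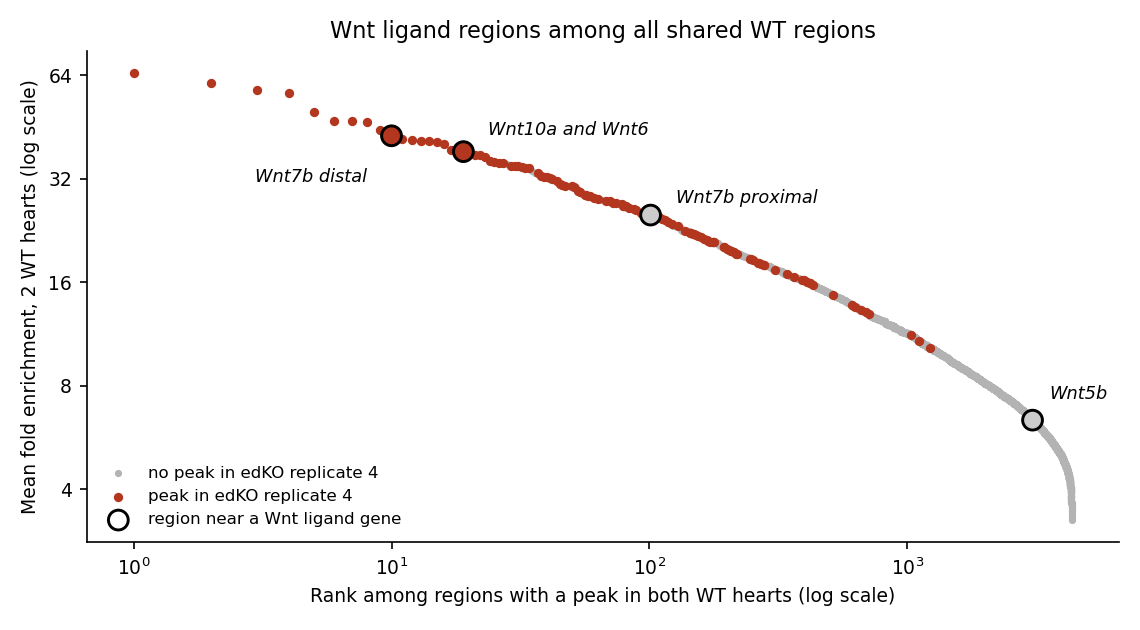
Mean fold enrichment of the 2 WT hearts (log scale) against rank (log scale) for the 4342 regions with a peak in both; red regions also have a peak in edKO replicate 4, and large outlined circles mark the regions near Wnt ligand genes, filled red or grey in the same way. The distal Wnt7b and the Wnt10a and Wnt6 regions, 10th and 19th, lie in the stretch where every region is red, while the Wnt5b region, 3056th, lies where none is.

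Among the other 9 Wnt ligand genes, a shared region lay within 50 kb of 3, near the share of all genes, 32.4%. None had an edKO peak, where 1.52% of all genes had one in edKO replicate 4 and 0.119% in edKO replicate 3. Wnt3a had 3 shared regions, Wnt9a 2 and Wnt2b 1, and only the strongest of each gene was compared. These strongest regions were weaker than those of Wnt7b, Wnt10a and Wnt6 but stronger than that of Wnt5b. The 10 genes were chosen by these same values. Wnt9a, which acts in joint and blood stem cell formation, had a region 4.58 kb outside the gene with fold enrichments of 19.2 and 10.5 in WT replicates 3 and 4. The same region was counted for its neighbour Wnt3a at 47.4 kb. Wnt2b had a region 6.34 kb outside the gene (15.6 and 5.70). Wnt8a, Wnt8b and Wnt9b had peaks in WT replicate 3 only, the strongest of each being 4.26, 6.17 and 4.88. Wnt3, Wnt7a, the closest paralogue of Wnt7b, and Wnt16 had no peak in any heart.

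The wider pathway was then examined in 8 lists, these 9 ligands included, with 88 genes outside the 10. A shared region lay within 50 kb of 32 of the 88, or 36.4%, against 32.4% of all genes. An edKO replicate 4 peak lay near 1 of the 88, against 1.52% of all genes, so both shares were near those of all genes. Of the 5 genes of ligand secretion, 1 had a shared region: Notum, which encodes a carboxylesterase that removes the lipid of Wnt proteins (7.73 and 3.95 in WT replicates 3 and 4, inside Aspscr1). Porcn and Wls, which acylate and escort Wnt proteins, had no peak in any heart.

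Of 16 receptor and co-receptor genes 6 had a shared region. The strongest were those of the Frizzled gene Fzd2 (15.1 and 12.6, inside Gpatch8 at 48.0 kb), the receptor tyrosine kinase gene Ror2 (12.7 and 6.09, at 41.1 kb) and the co-receptor gene Lrp5 (9.47 and 9.34, at 33.0 kb). Of 13 extracellular inhibitor genes 3 had one: Kremen2 (13.9 and 3.87), Kremen1 (9.81 and 5.08) and Trabd2b (6.43 and 3.87). No shared region was found for the Dkk genes, most of which encode antagonists of the co-receptors. The same held for Frzb and the Sfrp genes, which encode decoys for the ligands. Dkk3, Dkk4 and Sfrp1 had peaks in WT replicate 3 only, the strongest of each being 7.75, 10.6 and 4.47. Of 9 genes of the R-spondin module, which sets receptor turnover, 2 had a shared region: Lgr6 (9.81 and 6.71) and Znrf3, through the Kremen1 region.

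Inside the cell, 9 of 18 genes of cytoplasmic signalling and the destruction complex had a shared region. The strongest were counted for the casein kinase gene Csnk1a1 (32.1 and 20.4, inside Arhgef37 at 48.8 kb), the Dishevelled gene Dvl2 (20.4 and 11.6, inside the fatty acid oxidation gene Acadvl) and the glycogen synthase kinase gene Gsk3b (15.5 and 11.6, 53 bp outside the gene). The Dvl2 window held the edKO replicate 4 peak, at 3.08. Of 9 nuclear factor genes 6 had one: the leading regions were those of Lef1 (32.7 and 4.60, inside the fatty acid oxidation gene Hadh), Pygo2 (22.1 and 14.9, near Zbtb7b) and Bcl9l (13.0 and 6.05, inside the gene). Of 10 genes that Wnt signalling is known to induce 2 had one, Ccnd1 (16.2 and 6.77) and Nkd2 (7.18 and 6.13). Axin2, the most widely used readout of the pathway, had peaks in WT replicate 3 only, the strongest at 4.88. In each of these lists the best region had a lower mean than the distal Wnt7b and the Wnt10a and Wnt6 regions. The 10 ligand genes were chosen by these same values, so this order followed from the choice. The Csnk1a1 region, with a mean of 26.3, was stronger than the proximal Wnt7b region at 25.1. Many of the list regions lay inside a neighbouring gene.

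**Figure D4:**
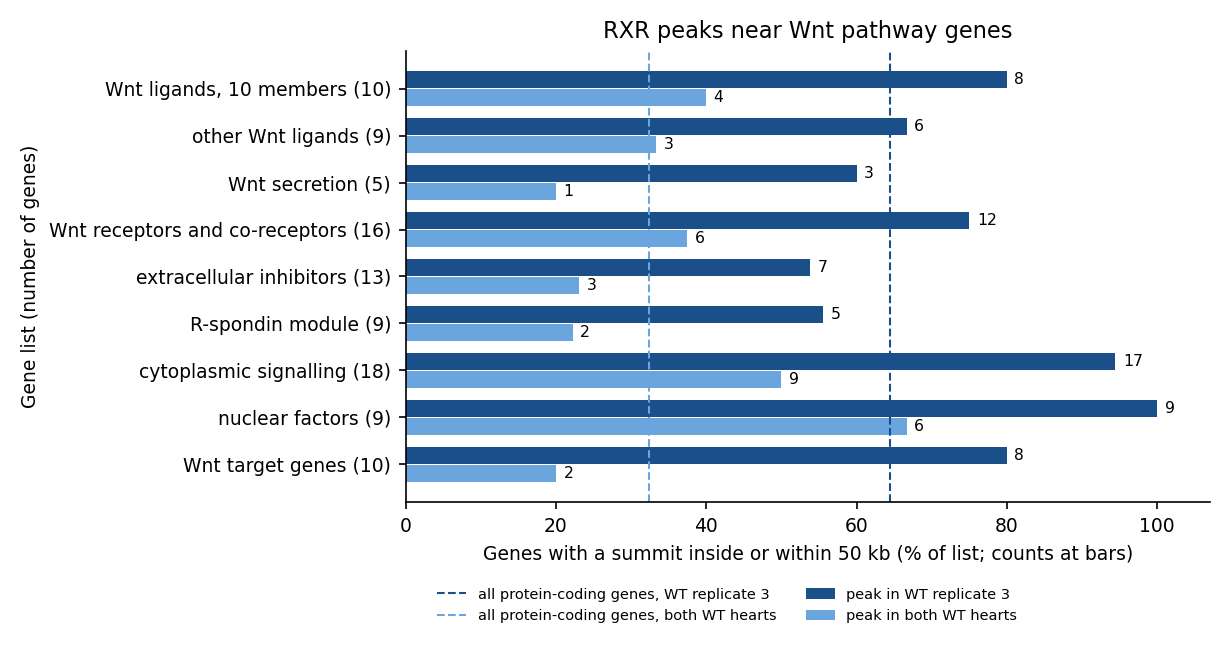
Share of genes in each Wnt list with a summit inside or within 50 kb, in WT replicate 3 (dark bars) and in both WT hearts (light bars), with gene counts at the bars and the shares of all protein-coding genes as dashed lines (64.5% and 32.4%). The 10 ligand genes, at 8 and 4 genes, lie near the lines, and the nuclear factor list has the highest shares, at 9 and 6 of 9.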

How the data were processed

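The authors deposited 1 narrowPeak list per heart, made from its immunoprecipitate and input, per the labels. Per the submitters' processing notes, cutadapt, BWA, SAMtools and MACS3 were used on mm10 (GRCm38); their versions and settings were not given in the sources used. The deposited values are a fold enrichment (a ratio), −log10 p and q values, positions and a score; the score, a rounded multiple of −log10 q, was not used.

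Peaks overlapping by at least 1 bp were shared, each peak of WT replicate 4 taking as its partner the strongest overlapping peak of WT replicate 3, whose summit placed the region. Genes were the 21887 protein-coding genes on the numbered and sex chromosomes among 49997 RefSeq entries (GRCm38.p6); all listed genes matched. Fragments at a summit were solved from fold enrichment (pseudocount of 1) and a Poisson −log10 p, and 100% of the up to 300 peaks examined per list gave whole numbers within 0.02. The immunoprecipitate was scaled by 0.9669 in WT replicate 4 and 0.9918 in edKO replicate 3. Scripts (Python 3.11.15, scipy 1.17.1) were tested on simulated data.

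The ligand genes and lists were chosen with earlier results of these data known. Named were all ligand genes, the regions ranked next to the strongest one, and up to 3 genes per list by mean fold enrichment; other genes were named after their values were seen. No p-value was computed. Alternatives changed the overlap, peak threshold, distance and gene assignment and left out each heart.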

Additional observations from a re-analysis of the deposited data

How the results depend on the processing

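The main values were 4 regions shared by the WT hearts, 4 ligand genes with such a region, a median fold enrichment of 31.7, a ratio of WT to edKO peaks of 12.5, and 19.0% of WT replicate 3 peaks recurring. Within 10 kb no shared region remained (0 regions, 0 genes, a recurring share of 0%), and neither a median nor a ratio could be formed. Within 100 kb there were 10 regions and 7 genes, with a median of 7.97 and a ratio of 25. With a −log10 p of at least 10, which lies above the lowest value in each list, the ratio was 7.5. Counting a region only where a ligand gene was nearest left 2 genes. Leaving out 1 heart gave 4 to 21 regions, 4 to 8 genes, a median of 5.45 to 23.2 and a ratio of 4 to 21. Requiring an overlap of 50% of each peak removed 1 region, leaving 3. No paired analysis was possible because the results come from no test and the shared numbers 3 and 4 are not said to mark a litter or day. The weakest peaks near the ligand genes rest on as few as 11 fragments, and the lists give no value for signal that was not called.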
